A study of Homo sapiens with 5 samples.

Results

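HL60 cells carrying the SCR control lentivector were set beside HL60 cells that had not been transduced. The comparison was chosen by the library titles and holds 3 of the 5 libraries of the series: SCR 1, SCR 2 and the single untransduced library. HL60 is an established human leukaemia line that grows as promyelocytes, the granulocyte precursors that fill their first granules with proteases and peroxidase. All cells came from ATCC and were kept in IMDM with 10% FBS, and the untransduced cells had no further treatment named in the labels. The SCR cells were infected with a pGreenPur lentivector, called scramble in one place and empty in another, with polybrene at 8 µg/mL and a multiplicity of infection of 20. They were spun at 1500 g for 2 hours and kept in 2 µg/mL puromycin from day 3 through day 8. The vector, GFP, polybrene, the spin, puromycin selection and time in culture therefore cannot be told apart, and each entered with the SCR label. The 2 other libraries carry the ZIP vector, an antisense hairpin against miR-378a-3p, in the same backbone and with the same handling. Their counts were used to estimate the spread between paired libraries, and their levels are set beside the others at the end.

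A lentivector enters a cell as RNA, is copied into DNA and inserts into the chromosomes. Cells hold sensors for foreign RNA and DNA, and these sensors switch on type I interferon and the genes that interferon induces. HL60 cells also keep the ability to mature: chemical inducers are known to move them towards granulocytes, eosinophils or monocytes. Each of these routes has well known marker genes. Transcript levels are given as CPM, counts scaled to a common library size (1e6) after TMM scaling. CPM values of different genes are not corrected for length, so they are compared between libraries and not between genes.

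The 3 libraries were alike in depth, with 24539092 to 25064771 counts, and 22066 to 23766 genes had a count. A kit for small RNA is named in the labels. Protein-coding genes nevertheless held 96.6 to 96.9% of the counts, so the values describe mRNA. MYC, of which HL60 carries extra copies, had 2035 CPM untransduced and 926 and 934 CPM in SCR. The SCR pair differed little: of 8877 genes with at least 10 CPM, 1 was 2-fold apart between SCR 1 and SCR 2. The untransduced side has 1 library, so its own spread was not measured. A fit over all 5 libraries took the spread from the SCR and ZIP pairs and assumed that the untransduced library varies likewise. The labels do not say whether paired libraries stem from different cultures. A p-value here thus reflects library-to-library spread alone, and that spread could be technical. A gene is called higher or lower, or said to rise or fall, where its adjusted p was under 0.05 (edgeR quasi-likelihood test, Benjamini-Hochberg). In bulk samples fewer cells of a type and less RNA per cell cannot be told apart.

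The difference between SCR and untransduced cells was broad. Of 15832 genes tested, 10273 (64.9%) were called, 5178 higher in SCR (32.7%) and 5095 lower (32.2%). Falls outnumbered rises among small changes and rises outnumbered falls among large ones. Under 1.5-fold, 1976 genes were higher and 2982 lower, while at 8-fold or more 807 were higher and 53 lower. At 2-fold or more 2302 genes were higher (14.5%) and 927 lower (5.86%). Of those higher genes 1299 stood under 1 CPM in the untransduced library and 204 had no count there. Among the 9247 genes with at least 10 CPM in a group, 805 were at least 2-fold higher and 328 at least 2-fold lower. With library totals in place of TMM scaling the median of all genes moved from 0.016 to 0.13 on the log2 scale, and 6157 genes were called higher against 4121 lower. The median was near 0 under the scaling used, so the medians of gene groups below can be read against 0. Counts of called members in those groups are to be read against the shares of all genes, 32.7% higher and 32.2% lower.

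**Figure D1:**
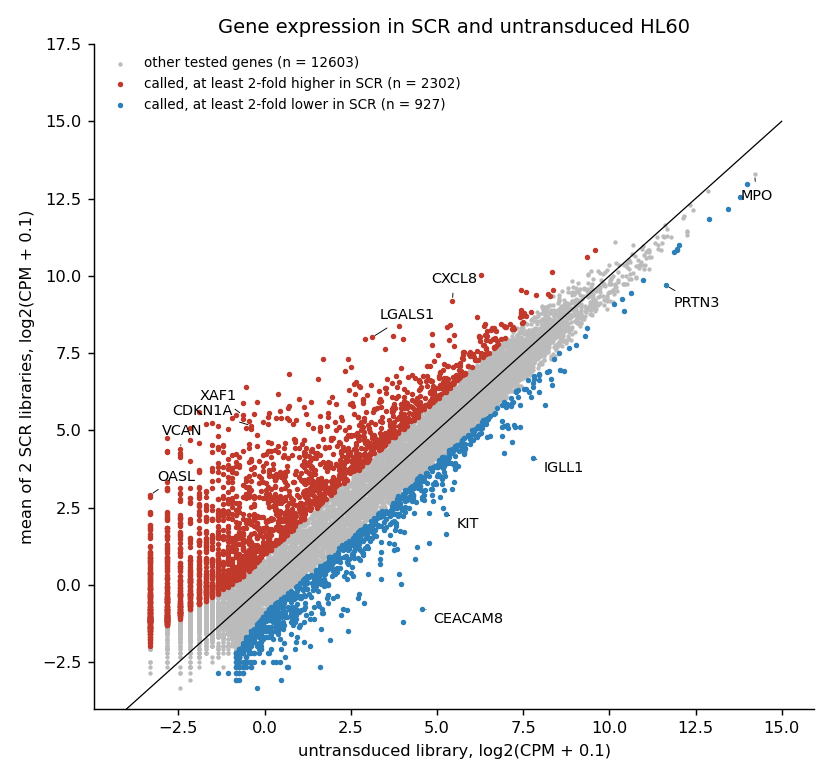
Each point is a tested gene, with log2(CPM + 0.1) in the untransduced library on the x axis and the same for the mean of the 2 SCR libraries on the y axis; the line marks equal levels. Red points (2302) are called and at least 2-fold higher in SCR, blue points (927) at least 2-fold lower, and many red points lie at the left edge where the untransduced library had few or no counts.

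The genes with the largest rises were ones that the untransduced library hardly held. OASL, an interferon-induced relative of the oligoadenylate synthetases, had no count untransduced and 209 and 169 counts in SCR 1 and SCR 2. Against a floor of 3 counts for the untransduced library it was at least 59.1-fold higher. The serotonin receptor HTR7 went from no count to 187 and 177 counts, at least 56.9-fold higher, and the potassium channel KCNA3 to 132 and 124 counts, at least 40.0-fold. INHBA, which encodes the activin A subunit, was at least 39.7-fold higher, the kinase CAMK2D at least 38.5-fold and the heart and limb transcription factor HAND2 at least 29.7-fold. The 5 genes from HTR7 to HAND2 stood at 3.58 to 7.37 CPM in the SCR libraries. The interleukin-31 receptor chain IL31RA was at least 28.3-fold higher, IFI44L at least 27.7-fold, ONECUT2 at least 27.2-fold and GPRIN1 at least 26.4-fold. EPB41L2, a membrane skeleton protein, had 1 count untransduced and 679 and 708 counts in SCR, or 0.0417 CPM against 26.8 and 27.5 CPM, a ratio of 651 with a 95% counting interval of 117 to 25722.

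The largest falls included genes of granulocytes and their precursors together with some neuronal ones. OLFM4, a protein of specific granules, had 31 counts untransduced and 0 and 1 in SCR, 66.1-fold lower with a 95% counting interval of 11 to 2693. CEACAM8, the adhesion molecule CD66b of granulocytes, fell from 23.8 CPM to 0.552 and 0.428 CPM, 48.5-fold lower with a 95% counting interval of 32.5 to 75.6. LTF, the lactoferrin gene, fell from 7.35 to 0.552 and 0.584 CPM and the neutrophil collagenase MMP8 from 2.38 to 0.197 and 0.117 CPM. All 4 are stored in or shown on the same maturing granulocytes. IGLL1, the surrogate light chain also found in early granulocyte precursors, fell from 221 to 17.2 and 17.1 CPM, 12.9-fold lower with a 95% counting interval of 12 to 13.8. The cobalamin receptor CD320 fell from 38 to 3.47 and 2.68 CPM, and LRRC26, a subunit of a potassium channel, from 15.5 to 0.986 and 0.856 CPM. The glutamate receptor subunit GRIN1 fell from 5.30 to 0.158 and 0.350 CPM, and the potassium channel KCNK17 from 2.96 to 0.0789 and 0.0389 CPM, 50.4-fold lower with a 95% counting interval of 16.6 to 250.4. In each of these both SCR libraries stood below the untransduced library by more than they differed from each other. The annotated ends of GRIN1 and LRRC26 overlap on chromosome 9. The use of strand in counting is not given, so reads of these neighbours may not be fully told apart.

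By difference in CPM rather than by fold, the main rises included genes of the cell's skeleton and the main falls those of granules and mitochondria. LCP1, the leukocyte actin bundler L-plastin, rose from 1142 to 2212 and 2201 CPM and FLNA, filamin A, from 761 to 1828 and 1820.2 CPM. AHNAK, a very large membrane scaffold protein, rose from 77.7 to 1031 and 1055 CPM, a log2 fold change of 3.75 ± 0.03 (SE). The trend of fold change with transcript length, given below, was not taken out of these values. The median log2 fold change was 0.39 in the longest decile of protein-coding genes. The largest loss was of MPO, myeloperoxidase, which went from 19034 to 9974 and 9999 CPM. It was followed by the mitochondrial mRNAs MT-CO1, from 16213 to 7959 and 8030.5 CPM, and MT-ND4, from 14233 to 5906 and 6194 CPM. P4HB, a protein disulphide isomerase of the endoplasmic reticulum, fell from 4923 to 2773 and 2785 CPM.

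**Figure D2:**
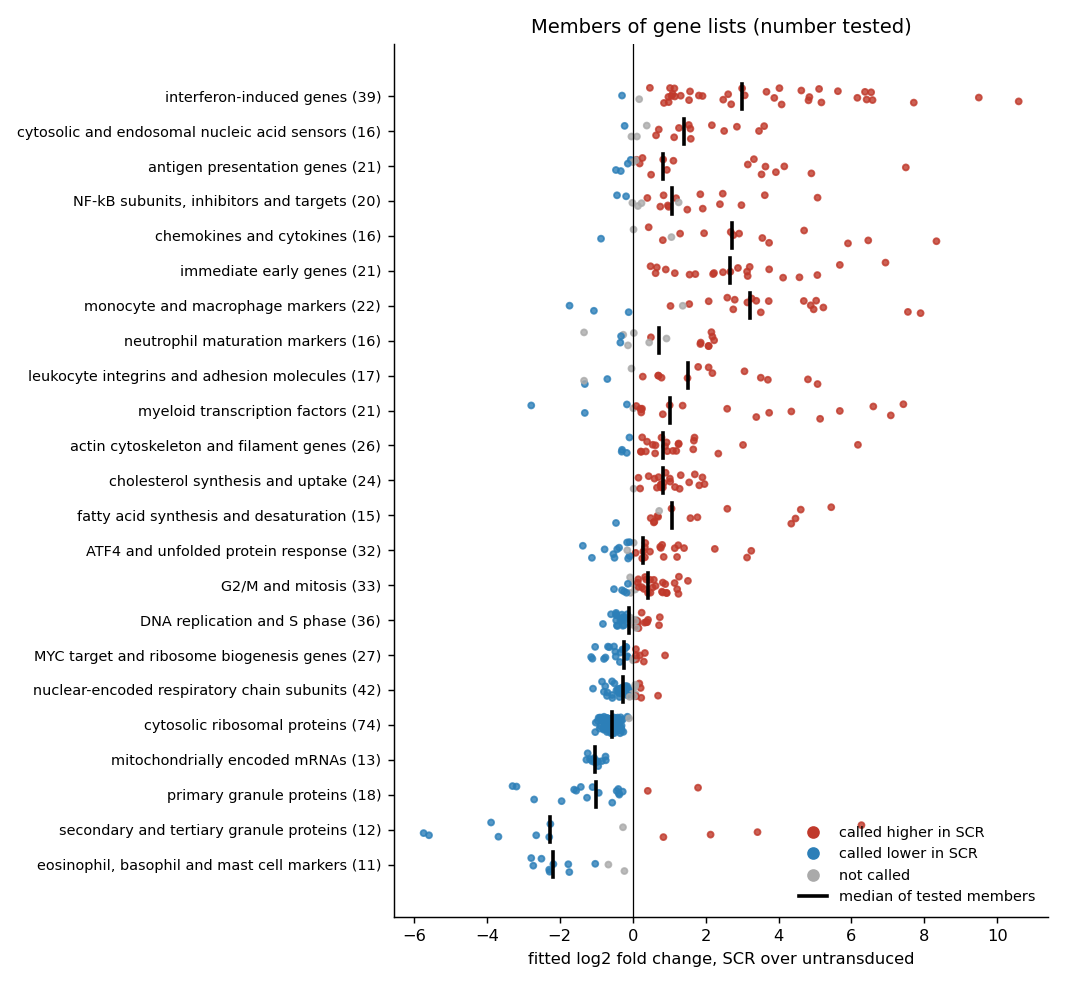
Each point is a tested member of a gene list, placed by its fitted log2 fold change of SCR over untransduced, with called members in red (higher) or blue (lower), uncalled members in grey and a black bar at the median. Interferon-induced genes, immediate early genes, chemokines and monocyte markers lie to the right, and the 2 granule lists, eosinophil markers, mitochondrial mRNAs and ribosomal proteins to the left.

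Interferon-induced genes were higher in SCR almost without exception. Of 40 listed, 39 passed the filter on low counts, 37 rose and 1 fell, with a median log2 fold change of 3.00 against 0.016 for all genes. Their summed level was 358 CPM untransduced and 1139 and 1122 CPM in SCR. Several are direct antiviral proteins. MX1, a GTPase that traps viral nucleocapsids, stood at 0.668 CPM untransduced and 33.5 and 33.1 CPM in SCR, a log2 fold change of 5.63 ± 0.17 (SE), adjusted p = 5.1e-18 by the edgeR quasi-likelihood test. OAS2, which makes the signal for RNA decay by RNase L, had 2 counts untransduced, or 0.0835 CPM, and 17.9 and 19.1 CPM in SCR, a ratio of 221 with a 95% counting interval of 61.1 to 1831. IFIT1, which binds foreign RNA caps, rose from 0.626 to 15.7 and 15.4 CPM and RSAD2, viperin, from 0.167 to 4.61 and 5.10 CPM. BST2, tetherin, which holds budding virus at the cell surface, rose from 11.4 to 72.1 and 75.7 CPM. Both SCR libraries were above the untransduced library for each of these. Others control the response itself. USP18, its main brake, rose from 0.0417 CPM, a single count, to 4.54 and 4.12 CPM, a ratio of 104 with a 95% counting interval of 18.4 to 4114. The transcription factor STAT2 rose less, from 37.6 to 79.9 and 77.4 CPM, and IRF7 rose from 7.89 to 23.5 and 22.6 CPM. XAF1, a cell death factor, rose from 0.543 to 45.7 and 45 CPM. The exceptions were IFITM2, which fell from 28 to 22.1 and 23.5 CPM, and IFITM3, at 1.21 and 1.30 and 1.44 CPM, which was not called. The fall of IFITM2 was no longer called with DESeq2 or once the trend with transcript length and GC content was removed. No gene for interferon alpha or beta was on the list.

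Type I interferon acts through a complex that binds the ISRE, a DNA element whose core was taken as GAAA and GAAA parted by 2 bases of any kind, and was searched on both strands. Promoters, from 250 bases before to 50 after the first listed RefSeq start (GRCh38.p14), were found for 30 of the 39 tested interferon-induced genes, and 19 of these (63.3%) held a match. Of all 27305 promoters 3.65% held one and of tested genes 2.91%. Of the genes called at least 2-fold higher 4.91% held one, and of those at least 2-fold lower 1.49%. The list was chosen as genes known to respond to interferon, so the share describes the list rather than the comparison. The promoters of 4 genes described here are printed to show what such a match looks like, with the match in capitals.
IFI44L: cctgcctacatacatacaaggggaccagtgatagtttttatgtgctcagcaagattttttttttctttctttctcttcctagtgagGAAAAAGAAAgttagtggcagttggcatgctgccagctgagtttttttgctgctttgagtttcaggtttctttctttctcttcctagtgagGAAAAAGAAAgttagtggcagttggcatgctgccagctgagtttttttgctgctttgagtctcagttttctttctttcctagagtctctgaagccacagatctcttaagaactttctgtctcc
IFI6: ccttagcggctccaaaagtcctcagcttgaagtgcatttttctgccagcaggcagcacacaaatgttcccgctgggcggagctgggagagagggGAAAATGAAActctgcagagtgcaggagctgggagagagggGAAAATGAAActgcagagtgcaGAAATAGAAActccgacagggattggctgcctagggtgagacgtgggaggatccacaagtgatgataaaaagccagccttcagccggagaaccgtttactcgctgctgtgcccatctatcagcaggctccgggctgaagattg
MX1: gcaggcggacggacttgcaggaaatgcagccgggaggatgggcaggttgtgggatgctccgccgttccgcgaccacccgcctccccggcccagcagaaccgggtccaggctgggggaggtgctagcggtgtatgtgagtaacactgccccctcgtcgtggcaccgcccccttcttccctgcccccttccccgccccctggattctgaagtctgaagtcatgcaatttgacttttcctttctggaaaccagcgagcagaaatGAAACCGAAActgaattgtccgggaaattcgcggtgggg
IFIT1: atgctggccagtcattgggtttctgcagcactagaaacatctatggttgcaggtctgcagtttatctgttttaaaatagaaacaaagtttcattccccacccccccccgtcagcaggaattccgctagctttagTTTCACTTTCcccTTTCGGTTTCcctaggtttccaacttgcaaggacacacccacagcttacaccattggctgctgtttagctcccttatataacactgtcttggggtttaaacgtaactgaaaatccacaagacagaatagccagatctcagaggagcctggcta
The IFI44L window lies at chr1:78620198-78620497 (plus strand), that of IFI6 at chr1:27672143-27672442 (minus strand), that of MX1 at chr21:41420308-41420607 (plus strand) and that of IFIT1 at chr10:89392373-89392672 (plus strand). Counted from the start, the matches begin at bases -164 and -73 in IFI44L, at -156, -115 and -93 in IFI6, at -116 and -103 in IFIT1, and 11 bases after the start in MX1. IFI6, a mitochondrial survival protein, rose from 1.17 to 43.3 and 41.6 CPM, a log2 fold change of 5.18 ± 0.15 (SE). IFI44L, of the IFI44 family, had no count untransduced and 3.51 and 3.42 CPM in SCR. A match is a run of letters and not a measured binding site.

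Sensors of foreign nucleic acid were also higher. Of 18 listed, 16 were tested, 12 rose and 1 fell, with a median log2 fold change of 1.40. Among RNA sensors, DDX58 (RIG-I) rose from 6.22 to 19 and 18.5 CPM and IFIH1 (MDA5) from 12.4 to 38 and 36 CPM. The RNA-dependent kinase EIF2AK2 (PKR) rose from 39.2 to 85.9 and 86.8 CPM. On the DNA side, IFI16 rose from 6.85 to 39 and 39 CPM, and TMEM173 (STING), the adaptor downstream of CGAS, rose from 22.1 to 98.7 and 100.3 CPM, a log2 fold change of 2.17 ± 0.06 (SE). CGAS itself rose less, from 42.5 to 65.6 and 67 CPM. The kinase TBK1, to which both arms lead, stood at 45.5 and 49.3 and 49.5 CPM and was not called, although it was called higher with library totals, with the length trend removed and without ZIP 2. IRF3, which it activates, fell slightly from 62.4 to 54 and 53 CPM. That fall was not called with library totals as the scaling. The endosomal RNA receptor TLR8 rose from 0.793 to 9.86 and 9.57 CPM.

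Retrovirus restriction factors were mixed. Of 20 listed, 17 were tested, 10 rose and 2 fell, with a median of 0.32. SAMHD1, which empties the nucleotide pool that reverse transcription needs, rose from 45.2 to 214 and 213 CPM, a log2 fold change of 2.24 ± 0.04 (SE). The cytidine deaminase APOBEC3B rose from 0.167 to 6.90 and 7.35 CPM, and MX2, which blocks nuclear entry of lentiviruses, from 4.38 to 26.2 and 22.9 CPM. The capsid sensor TRIM5 stood at 24.5 and 24.9 and 24.5 CPM and was not called. TRIM28, a corepressor that silences integrated retroviruses, fell from 646 to 489 and 488 CPM, while its partner SETDB1 rose from 63.7 to 75.9 and 82.5 CPM.

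Antigen presentation genes were mostly higher, with rises of class II genes. Of 21 tested genes 15 rose and 4 fell. In class I, HLA-B stood at 1517 and 1484 and 1439 CPM, a difference whose direction depends on the scaling, and HLA-C at 549 and 599 and 584 CPM. B2M, the shared light chain, fell from 2968 to 2163 and 2155 CPM. HLA genes resemble each other and vary between genomes, so reads can be lost or shared and their counts are uncertain. In class II, the activator CIITA rose from 0.417 to 6.35 and 6.50 CPM, the invariant chain CD74 from 11.1 to 195 and 200.4 CPM and HLA-DRA from 1.25 to 12.3 and 12.8 CPM. All 3 moved in the same direction.

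NF-kB genes, which drive inflammation, were mostly higher, while the subunits themselves moved in both directions. All 20 listed were tested, 14 rose and 2 fell, with a median of 1.09. Of the subunits, NFKB2 rose from 6.51 to 36.3 and 35.9 CPM and RELB from 5.30 to 19.4 and 19 CPM, NFKB1 rose from 66.2 to 88.4 and 86.6 CPM, and RELA fell from 96.2 to 72.6 and 70.2 CPM. Of the inhibitors, the ubiquitin editor TNFAIP3 (A20) rose from 19.3 to 73.4 and 72.8 CPM, its partner TNIP1 from 81.9 to 161 and 164 CPM and NFKBIA, which keeps NF-kB in the cytoplasm, from 31.6 to 63.2 and 60.1 CPM. Of the targets, TNF rose from 9.89 to 78.8 and 77.7 CPM, a log2 fold change of 2.98 ± 0.07 (SE), and the adhesion molecule ICAM1 from 0.459 to 16.2 and 14.9 CPM. SOD2, another known target, stood at 107 and 108 and 105 CPM and was not called, and its direction depends on the scaling.

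Most chemokines and cytokines that could be tested rose. Of 30 listed, 16 were tested, 13 rose and 1 fell, with a median of 2.73; 14 others, among them IL6 and CXCL10, were not tested. CXCL8, interleukin-8, the main neutrophil attractant, rose from 43.6 to 592 and 574 CPM, a ratio of 13.4 with a 95% counting interval of 12.6 to 14.2. CCL2, the monocyte attractant, rose from 10.0 to 64.5 and 64.7 CPM and SPP1, osteopontin, from 1.21 to 74.3 and 71.4 CPM. The interleukin-1 antagonist IL1RN rose from 1.54 to 40.3 and 40.3 CPM, more than IL1B, which went from 4.76 to 12.3 and 11.1 CPM. CSF1, the macrophage growth factor, had 2 counts untransduced and 7.97 and 7.59 CPM in SCR, a ratio of 93.1 with a 95% counting interval of 25.6 to 772. IL18 fell from 27.7 to 14.7 and 15.6 CPM. CCL22, at 0.250 and 0.473 and 0.584 CPM, and IL1A, at 0.501 and 0.552 and 0.467 CPM, were not called.

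An NF-kB element was taken as GGGA and TTCC parted by 2 bases of any kind, and was searched on both strands. It was in 5 of 18 promoters of the NF-kB list (27.8%) and in 1 of 11 of the chemokine and cytokine list. Of all promoters 1.63% held it and of tested genes 1.55%. Among the genes called at least 2-fold higher 2.49% held it, and among those at least 2-fold lower 1.91%. The NF-kB list was chosen as known genes of this pathway, so its share describes the list rather than the comparison. An AP-1 element, TGACTCA on either strand, is bound by JUN and FOS pairs. It was in 4 of 11 promoters of the chemokine and cytokine list and in 3 of 17 of the monocyte and macrophage list. In the list of immediate early genes, described below, it was in 1 of 16, and in the NF-kB list in 0 of 18. Of all promoters 4.92% held it and of tested genes 3.24%. Of the genes called at least 2-fold higher 4.84% held it, and of those at least 2-fold lower 2.97%. All these lists were chosen with earlier results of these data known, so their AP-1 shares too describe the lists rather than the comparison. 2 promoters with the first element and 2 with the second are printed, with the match in capitals.
TNFAIP3: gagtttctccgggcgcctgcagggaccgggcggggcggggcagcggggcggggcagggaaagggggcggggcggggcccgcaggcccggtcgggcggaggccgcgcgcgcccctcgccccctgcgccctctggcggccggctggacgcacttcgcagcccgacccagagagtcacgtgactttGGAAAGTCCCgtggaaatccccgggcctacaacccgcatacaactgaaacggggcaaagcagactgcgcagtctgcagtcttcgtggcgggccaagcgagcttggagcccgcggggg
NFKBIA: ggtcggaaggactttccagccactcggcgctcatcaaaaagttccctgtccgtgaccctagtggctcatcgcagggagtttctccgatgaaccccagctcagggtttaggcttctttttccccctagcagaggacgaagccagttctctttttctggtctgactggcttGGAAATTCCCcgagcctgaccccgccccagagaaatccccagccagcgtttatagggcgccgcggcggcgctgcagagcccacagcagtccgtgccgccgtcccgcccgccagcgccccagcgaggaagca
CXCL8: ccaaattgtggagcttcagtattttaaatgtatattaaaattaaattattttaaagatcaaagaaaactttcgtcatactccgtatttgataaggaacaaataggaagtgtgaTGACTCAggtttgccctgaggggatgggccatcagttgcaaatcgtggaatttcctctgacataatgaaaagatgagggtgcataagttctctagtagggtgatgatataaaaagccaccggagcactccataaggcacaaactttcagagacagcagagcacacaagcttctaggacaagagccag
CD14: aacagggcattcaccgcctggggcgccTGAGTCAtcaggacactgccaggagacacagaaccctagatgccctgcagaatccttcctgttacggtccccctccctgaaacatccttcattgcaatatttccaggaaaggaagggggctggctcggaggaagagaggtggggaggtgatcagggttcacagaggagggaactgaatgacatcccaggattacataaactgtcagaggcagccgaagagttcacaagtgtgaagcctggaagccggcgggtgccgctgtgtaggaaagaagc
TNFAIP3 and NFKBIA carry the NF-kB element at bases -67 and -81, and CXCL8 and CD14 the AP-1 element at -137 and -223. The windows lie at chr6:137867009-137867308 (plus strand), chr14:35404700-35404999 (minus strand), chr4:73740319-73740618 (plus strand) and chr5:140633126-140633425 (minus strand) (RefSeq, GRCh38.p14). 

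Immediate early genes, which cells switch on within minutes of a growth or stress signal, were higher as a block. All 21 were tested and all 21 rose, with a median of 2.68, the highest share called higher of the lists with over 10 tested members (32.7% of all genes were called higher). JUN (ENSG00000177606, chromosome 1, 58780788 to 58784327, minus strand in GRCh38) stood at 7.47 CPM untransduced and 250.4 and 250.3 CPM in SCR, a log2 fold change of 5.07 ± 0.06 (SE), adjusted p = 3.8e-25 by the edgeR quasi-likelihood test. FOS, its partner in AP-1, rose from 5.59 to 135 and 132 CPM and FOSL2 from 29.1 to 214 and 216 CPM, while JUNB and JUND rose less, from 106 to 152 and 147 CPM and from 154 to 245 and 241 CPM. The SCR libraries agreed closely in all of these. EGR1, a zinc finger factor of the same class, rose from 1.38 to 19.3 and 17.7 CPM and EGR2 from 0.167 to 8.08 and 9.53 CPM. ZFP36, which brings about decay of cytokine mRNAs, rose from 26.3 to 85.5 and 87.5 CPM. DUSP1, a phosphatase that turns off MAP kinases, had 3 counts untransduced and 404 and 408 counts in SCR, a ratio of 127 with a 95% counting interval of 43.3 to 617. Feedback genes of MAP kinase signalling, a list that includes DUSP1 but not only brakes, rose in 11 of 14 tested genes. The transcription factor ETV5, also on that list, went from 29.8 to 72.7 and 71.9 CPM. SPRY1 and DUSP2 fell, from 21.9 to 10.6 and 11 CPM and from 28.3 to 19.5 and 19.4 CPM.

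**Figure D3:**
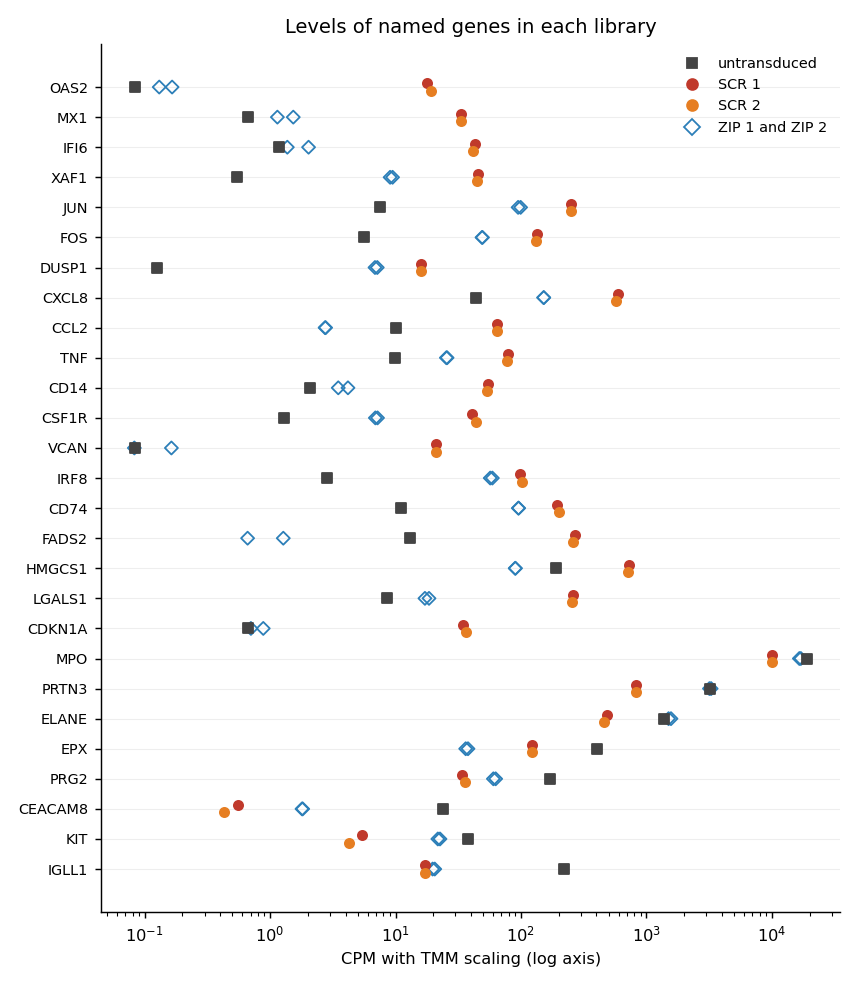
CPM with TMM scaling, on a log axis, of named genes in each library: the untransduced library as a dark square, SCR 1 and SCR 2 as filled circles drawn slightly apart, and ZIP 1 and ZIP 2 as open diamonds. The 2 SCR circles lie close together for every gene, to the right of the square from OAS2 to CDKN1A and to its left from MPO to IGLL1.

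Markers of monocytes and macrophages rose by large factors from low levels. Of 23 listed, 22 were tested, 18 rose and 3 fell, with a median log2 fold change of 3.20. CD14, the co-receptor for endotoxin, stood at 2.09 CPM untransduced and 54.7 and 53.6 CPM in SCR, a ratio of 25.9 with a 95% counting interval of 19.6 to 35. CSF1R, the receptor for the macrophage growth factor, rose from 1.29 to 41.1 and 44 CPM and the Fc receptors FCGR1A and FCGR2A from 2.21 to 19.9 and 22.7 CPM and from 7.14 to 63.8 and 62.6 CPM. VCAN, a matrix proteoglycan of monocytes, had 2 counts untransduced and 20.9 and 21.2 CPM in SCR, a ratio of 252 with a 95% counting interval of 69.6 to 2083. These genes mark the monocyte line. SIGLEC1, which lets macrophages bind sialic acid, had 1 count untransduced and 8.32 and 9.10 CPM in SCR, a ratio of 209 with a 95% counting interval of 37.3 to 8265. CD68, of the macrophage lysosome, rose from 20.5 to 59.5 and 60.4 CPM. CD163 reached only 0.907 and 0.895 CPM, a rise not called with DESeq2, and the markers S100A8, S100A9 and S100A12, shared with neutrophils, fell: S100A8 went from 88.7 to 41.7 and 43.2 CPM and S100A12 from 4.17 to 1.18 and 1.32 CPM. The summed level of the list was 295 CPM untransduced and 578 and 586 CPM in SCR.

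Myeloid transcription factors were mostly higher. Of 22 listed, 21 were tested, 17 rose and 3 fell. IRF8, which directs monocyte and dendritic cell fate, rose from 2.84 to 98.7 and 102 CPM, a log2 fold change of 5.14 ± 0.09 (SE). KLF4, which drives monocyte differentiation, rose from 0.417 to 8.32 and 8.91 CPM and KLF2 from 0.459 to 45.1 and 44.9 CPM. CEBPE, which drives the later steps of granulocyte maturation, fell from 293 to 119 and 116 CPM. GATA1, of the erythroid, eosinophil and mast cell lines, fell from 2.59 to 0.315 and 0.428 CPM. The factors that define the promyelocyte stage moved little: SPI1 (PU.1) stood at 352 and 318 and 312 CPM, CEBPA at 109.6 and 134 and 128 CPM, GFI1 at 278 and 297 and 298 CPM and RUNX1 at 169.7 and 202 and 196 CPM. All 4 were called, by under 1.5-fold, and the direction of SPI1 and RUNX1 turned once the trend with transcript length and GC content was removed.

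Surface receptors for growth factors and cytokines were mostly higher. Of 23 listed, 22 were tested, 18 rose and 3 fell. KIT, the stem cell factor receptor of progenitors and mast cells, fell from 38 to 5.44 and 4.28 CPM, 7.83-fold lower with a 95% counting interval of 6.80 to 9.05. The interleukin-10 receptor chain IL10RA rose from 2.46 to 59.8 and 61.3 CPM, IL6R from 117 to 354 and 344 CPM and the TNF receptor TNFRSF1B from 82.4 to 333 and 335 CPM. The granulocyte factor receptor CSF3R rose from 163 to 232 and 228 CPM. The interferon receptor chains IFNAR1 and IFNAR2 stood at 79.9 and 12.2 CPM untransduced, and at 84.5 and 86.7 CPM and 23 and 23.1 CPM in SCR, and the direction of IFNAR1 turned with the trend of length and GC content removed. Toll-like receptors and their adaptors rose in 9 of 14 tested genes: TLR2 went from 15.3 to 58.1 and 57.7 CPM, TLR4 from 50.7 to 92 and 91.6 CPM and the adaptor MYD88 from 27.6 to 62.5 and 62.6 CPM.

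Primary granule proteins, the hallmark of the promyelocyte, went down. Of 19 listed, 18 were tested, 16 fell (32.2% of all genes fell) and 2 rose, with a median of -1.02. The defensin DEFA4, with the largest fold in the list, fell from 6.39 to 0.315 and 0.973 CPM, 9.88-fold lower with a 95% counting interval of 6.75 to 14.9. Of the serine proteases PRTN3, proteinase 3, went from 3197 to 821 and 834 CPM, a log2 fold change of -1.95 ± 0.02 (SE), ELANE, neutrophil elastase, from 1378 to 487 and 456 CPM and CTSG, cathepsin G, from 205 to 76.5 and 76.4 CPM. AZU1, azurocidin, which lies beside PRTN3 and ELANE on chromosome 19, fell from 521 to 221 and 216 CPM. MPO fell by 0.93 ± 0.01 (SE) on the log2 scale. CST7, cystatin F, fell from 378 to 125 and 123 CPM and the protease PRSS57 from 35.9 to 5.60 and 5.41 CPM. The members fell by unequal amounts. BPI fell from 101 to 69.6 and 67.4 CPM. SRGN, serglycin, the proteoglycan that packs granules, stood at 3013 and 2512 and 2477 CPM, a fall that was not there once the trend with transcript length and GC content was removed. LYZ, lysozyme, which monocytes also make, rose from 323 to 1116 and 1121 CPM, a log2 fold change of 1.79 ± 0.02 (SE).

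Secondary and tertiary granule genes, which belong to later granulocytes, moved in both directions. Of 17 listed, 12 were tested, 7 fell and 4 rose. Besides CEACAM8, LTF, MMP8 and OLFM4, CEACAM6 fell from 34 to 7.69 and 6.54 CPM. MMP9, gelatinase B, which macrophages also secrete, rose from 0.250 to 19.1 and 20.4 CPM. Markers of neutrophil maturation rose in 8 of 16 tested genes and fell in 2. The integrin chains ITGAM and ITGB2 (CD11b and CD18) rose from 8.39 to 39 and 37.5 CPM and from 175 to 739 and 741 CPM, and the complement receptor CR1 from 4.72 to 22.6 and 21.9 CPM. Both integrin chains and CR1 are also on monocytes. The neutrophil chemokine receptor CXCR2 fell from 23.1 to 18 and 18.6 CPM, and FPR2 and PADI4 were not called.

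Eosinophil, basophil and mast cell genes fell together. Of 13 listed, 11 were tested, 9 fell and 0 rose, with a median of -2.17. EPX, eosinophil peroxidase, fell from 408 to 122 and 123 CPM, PRG2, the eosinophil major basic protein, from 169 to 34 and 35.8 CPM and CLC, the Charcot-Leyden crystal protein, from 118 to 35.3 and 34.3 CPM. CPA3, the mast cell carboxypeptidase, fell from 7.93 to 1.22 and 1.17 CPM. The summed level of the list was 714 CPM untransduced and 195 and 197 CPM in SCR. Among stem and progenitor genes 5 of 10 tested rose and 2 fell, against 32.7% and 32.2% of all genes. HOXA10 rose from 0.501 to 5.80 and 5.45 CPM, and MSI2 fell from 18.9 to 8.16 and 8.44 CPM.

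Genes for adhesion and the actin skeleton rose. Of 17 tested integrins and adhesion molecules 13 rose and 2 fell. CD44, the hyaluronan receptor, rose from 74.7 to 256 and 264 CPM, ITGAL (CD11a) from 105 to 299 and 299 CPM and ITGAX (CD11c) from 2.92 to 33.8 and 33.1 CPM, while ITGA6 fell from 63.7 to 26.4 and 24.9 CPM. Of 26 actin and filament genes 22 rose and 4 fell. MYH9, the non-muscle myosin, rose from 652 to 1546 and 1569 CPM, LMNA, of the nuclear lamina, from 41.4 to 337 and 337 CPM and the bundling protein FSCN1 from 1.54 to 114 and 110.4 CPM. ACTB itself fell from 5482 to 4505 and 4456 CPM. LGALS1, galectin-1, rose from 8.56 to 259.7 and 255 CPM, a ratio of 30.1 with a 95% counting interval of 26.2 to 34.7. ANXA2 rose from 0.292 to 33.9 and 37.2 CPM and S100A4 from 86 to 244 and 239.6 CPM. These 3 belong to a list of 20 tested S100, annexin and galectin genes, which moved in both directions. Of the list 12 rose and 7 fell, with a median of 0.60, against 32.7% higher and 32.2% lower over all genes. The membrane collagenase MMP14 rose from 1.54 to 55.4 and 55 CPM and its inhibitor TIMP1 from 17.3 to 53.9 and 50.9 CPM.

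Subunits of the phagocyte oxidase, which makes superoxide, moved in both directions. Of 8 subunits 5 rose and 2 fell. The catalytic chain CYBB (gp91phox) rose from 174 to 452 and 445 CPM. CYBA (p22phox), the membrane partner of CYBB, fell from 199.6 to 98.7 and 99.6 CPM and NCF4 (p40phox) from 316 to 237 and 234 CPM. NCF1 (p47phox) has near-identical pseudogenes and its count is uncertain. Of 24 lysosome genes 12 rose and 9 fell, with a median of 0.11, against 32.7% higher and 32.2% lower over all genes. Among them CTSA went from 258 to 168 and 175 CPM. Of the enzymes of lipid mediators, PTGS2 (cyclooxygenase-2) rose from 0.835 to 11 and 10.7 CPM and ALOX5 (5-lipoxygenase) fell from 32.7 to 23.1 and 21.7 CPM.

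Genes that make cholesterol and unsaturated fatty acids were higher along most of their pathways. Of 24 tested genes of cholesterol synthesis and uptake 23 rose and 0 fell, with a median of 0.84; PMVK was not called. At the head of the pathway HMGCS1 rose from 192 to 729 and 714 CPM. INSIG1, the sterol-controlled brake, rose from 183 to 452 and 442 CPM. SREBF2, the factor that controls these genes, rose from 375 to 595 and 595 CPM. The sterol element TCACNCCAC was in 1 of 18 of their promoter windows (5.56%) and in 1.15% of all promoters. Genes of efflux also rose in part: ABCA1, the cholesterol exporter, went from 13 to 28.1 and 29.3 CPM and MYLIP, a ubiquitin ligase of lipoprotein uptake, from 19.5 to 62.1 and 64 CPM. Of 15 tested genes of fatty acid synthesis and desaturation 13 rose and 1 fell. The neighbouring desaturase genes FADS1 and FADS2 on chromosome 11 rose from 14.9 to 326 and 335 CPM and from 13.1 to 271 and 262 CPM, log2 fold changes of 4.47 ± 0.05 and 4.35 ± 0.06 (SE). The elongase ELOVL6 rose from 0.877 to 37.2 and 39.6 CPM and SCD, which makes oleate, from 310.2 to 649.6 and 649 CPM.

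Mitochondrial and ribosomal transcripts were lower. All 13 mitochondrially encoded mRNAs fell, with a median of -1.02, and their share of the counts was 7.25% untransduced and 3.64 and 3.76% in SCR. MT-CO3 fell from 11131 to 4571 and 4661 CPM and MT-ND3 from 1575 to 906 and 983 CPM. Of 42 nuclear genes of the respiratory chain 30 fell and 5 rose, with a median of -0.28; ATP5MC1, a subunit of the ATP synthase ring, went from 141 to 67.1 and 66 CPM and NDUFS1, the largest complex I subunit, from 94.8 to 155 and 152 CPM. Of 74 cytosolic ribosomal protein genes 73 fell and none rose, with a median of -0.58. RPLP2 fell from 2262 to 1188 and 1180.0 CPM and RPS3 from 2889 to 1789.8 and 1841 CPM. Reads of many of these genes can be shared with their processed pseudogenes. These mRNAs are short, and the fold change followed transcript length. The median log2 fold change was -0.29 in the shortest decile of protein-coding genes and 0.39 in the longest, and in ZIP over untransduced, which shares the single untransduced library, it was -0.27 and 0.44. SCR 2 over SCR 1 stayed between -0.0079 and 0.0051. With the trend of length and GC content removed, 70 ribosomal protein genes and 13 mitochondrial mRNAs were still called lower. The part of RNA quality or library preparation in the length trend was not tested.

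**Figure D4:**
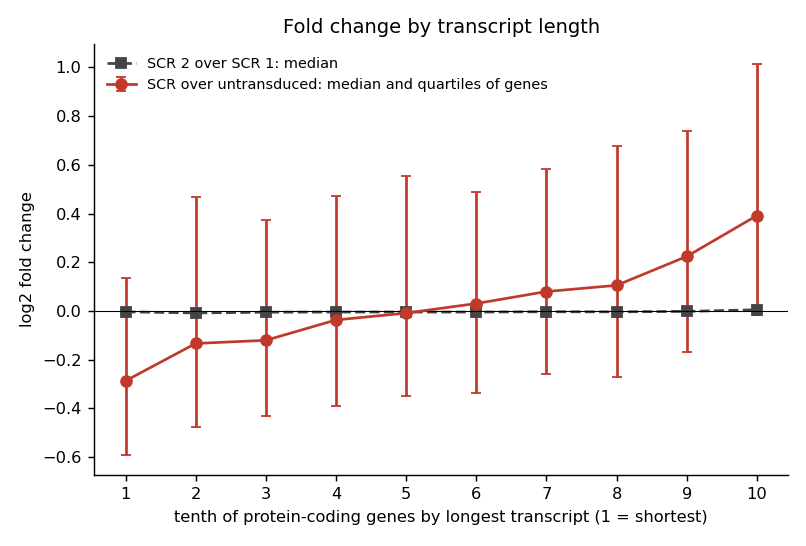
Protein-coding genes were put in 10 classes by their longest annotated transcript (x axis); circles give the median log2 fold change of SCR over untransduced with the quartiles as bars, and squares the median of SCR 2 over SCR 1. The circles climb from -0.29 to 0.39 while the squares stay near 0.

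MYC fell by 1.13 ± 0.02 (SE) on the log2 scale. Of 27 MYC target and ribosome biogenesis genes 18 fell and 7 rose, with a median of -0.23. FBL, the methyltransferase of the nucleolus, fell from 654 to 314 and 326 CPM and the polyamine enzymes SRM and ODC1 from 338 to 159 and 155 CPM and from 569 to 330.0 and 330.1 CPM. POLR1A, the large subunit of RNA polymerase I, rose from 73.5 to 133 and 139 CPM, and NCL, nucleolin, from 1642 to 2009 and 2050.2 CPM. MYCL, a relative of MYC, rose from 0.209 to 5.17 and 5.95 CPM.

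Mitotic genes were mostly higher, and the inhibitor CDKN1A rose. Of 36 DNA replication genes 18 fell and 11 rose, none by 2-fold, against 32.2% lower and 32.7% higher over all genes. PCNA fell from 509 to 378 and 366 CPM and RRM2, of ribonucleotide reductase, rose from 278 to 469.6 and 462 CPM. Of 33 mitotic genes 24 rose and 5 fell, with MKI67, the Ki-67 gene, going from 234 to 659 and 679 CPM and the kinetochore gene CENPF from 169 to 401 and 405 CPM. The trend with transcript length given above was not taken out of these values. CDKN1A, which encodes the inhibitor p21, rose from 0.668 to 34.7 and 36.4 CPM, a ratio of 53.2 with a 95% counting interval of 32.7 to 93.3. CDKN2A stood at 12.5 and 11.7 and 11.8 CPM and was not called. BTG2, an antiproliferative gene, rose from 7.93 to 35.2 and 36.7 CPM. The death genes PMAIP1 (NOXA) and TNFRSF10B rose from 32.7 to 172 and 171 CPM and from 28.1 to 99.5 and 93.9 CPM, while MDM2 fell from 54.8 to 36.2 and 35.7 CPM and FAS from 12.3 to 7.49 and 6.69 CPM. Of 15 BCL2 family genes 9 rose, among them the survival factor MCL1, from 149 to 295 and 287 CPM.

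Of 32 genes of the ATF4 and unfolded protein response 18 rose and 11 fell, with a median of 0.28. Over all genes 32.7% were called higher and 32.2% lower. SESN2, a stress sensor that restrains mTORC1, rose from 5.84 to 56.3 and 55.2 CPM, PPP1R15A (GADD34), which ends the translation block, from 14 to 65.9 and 67.4 CPM, and the serine synthesis enzyme PHGDH from 80.1 to 179.7 and 177 CPM. DDIT3 (CHOP) stood at 15.8 and 15.7 and 16.5 CPM and was called only with the trend of length and GC content removed. Of the chaperones of the endoplasmic reticulum CALR, calreticulin, fell from 4002 to 1833 and 1854 CPM and DNAJB9 from 39.8 to 15.1 and 15.8 CPM, and HSPA5 (BiP), at 666 and 644 and 646 CPM, was not called, and its direction depends on the scaling. Of 15 heat shock genes 6 rose and 8 fell, the falls numbering 5 with DESeq2 and 4 with library totals. HSPB1, the small heat shock protein HSP27, rose from 5.72 to 58.9 and 60.3 CPM, while HSPA8 fell from 2101 to 1318 and 1299 CPM. MT1E, a metal-binding metallothionein, rose from 0.167 to 11.8 and 14.4 CPM, although metallothionein genes resemble each other and share reads. Among drug transporters ABCC1 rose from 119 to 174 and 176 CPM, and ABCB1, the classic exporter of multidrug resistance, was too low to test. SLC2A3, the glucose transporter GLUT3, rose from 6.05 to 72 and 71.9 CPM, and of the hexokinases HK1 went from 4.68 to 40.5 and 39.5 CPM and HK3 from 19.8 to 7.10 and 7.32 CPM.

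The microRNA that the ZIP vector targets could not be read here: MIR378A had no count in any of the 3 libraries, which allows up to 0.125 CPM in the untransduced library. Of the microRNA machinery AGO4 rose from 33.7 to 88.5 and 88.4 CPM and AGO2 from 17.6 to 33.9 and 34.7 CPM, while TARBP2, a partner of Dicer, fell from 65 to 38.1 and 39.1 CPM. DICER1 stood at 95.7 and 85.5 and 82.4 CPM, a log2 fold change of -0.19 ± 0.04 (SE) that was not called with library totals.

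Markers of cell types that an HL60 culture should not hold were mostly near 0 in all 3 libraries, with exceptions named here. Of 15 erythroid markers 11 were too low to test, with 8 at 0 counts throughout, and the summed level of the list came almost wholly from TFRC, which any dividing cell needs. Megakaryocyte markers summed to 5.80 CPM untransduced and 5.21 and 4.55 CPM in SCR, with 4 of 10 at 0. B cell markers summed to 4.63 CPM untransduced and 4.30 and 3.74 CPM in SCR, with 4 of 11 at 0. Of 16 T and NK cell markers 9 were tested, 4 rose and 1 fell. CD4, which monocytes carry too, rose from 288 to 311 and 308 CPM and the granule protein NKG7 from 11.1 to 21.5 and 19.8 CPM. The other members with a row in the table, among them CD3D and NCAM1, which rose from no count, and CD3E, which fell, were under 1 CPM in all 3 libraries. Epithelial and fibroblast markers summed to 4.51 CPM untransduced and 6.15 and 7.43 CPM in SCR. KRT18 went from no count to 30 and 33 counts, at least 9.85-fold higher. Reference genes, often taken as constant, fell in 9 of 16 and rose in 5, all by under 2-fold, with GAPDH going from 4507 to 3759.8 and 3787 CPM.

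The ZIP libraries received a vector with the same backbone and the same handling, so their levels are set beside those above. Both comparisons share the single untransduced library, and no test was made between them. MX1 stood at 1.14 and 1.53 CPM in ZIP, CD14 at 3.50 and 4.18 CPM and CDKN1A at 0.882 and 0.703 CPM, nearer to the untransduced values of 0.668, 2.09 and 0.668 CPM than to the SCR values. Interferon-induced genes differed in this. IFI6 stood at 1.37 and 2.03 CPM in ZIP against 1.17 CPM untransduced, and XAF1 at 9.48 and 9.06 CPM against 0.543 CPM. Their list summed to 470 and 473 CPM in ZIP, against 358 CPM untransduced and 1139 and 1122 CPM in SCR. FLNA, at 2088 and 2103 CPM, LYZ, at 1393 and 1395 CPM, and IGLL1, at 19.8 and 20.6 CPM, stood nearer to the SCR values given above. JUN, at 99.4 and 95 CPM, and IRF8, at 59.2 and 56.9 CPM, lay between the untransduced and SCR levels. EPX, at 37.8 and 36.3 CPM, lay below both. FADS2, at 1.27 and 0.662 CPM, was also below both, and HMGCS1 stood at 90.5 and 90.0 CPM.

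Fold changes also differed by chromosome. The median log2 fold change of protein-coding genes was 0.38 on chromosome 5 (n = 562), 0.27 on chromosome 6 (n = 648), 0.23 on chromosome 1 (n = 1284) and 0.20 on chromosome 2 (n = 835). On the other autosomes and the X it lay between -0.23 and 0.073. Of the genes on these 4 chromosomes 57.8%, 49.8%, 51.2% and 51.1% were called higher, in that order, against 4650 of all 12550 protein-coding genes tested and 32.7% of all genes tested. In windows of 15 Mb with at least 20 genes, the median was above 0 in all 11 windows of chromosome 5, all 9 of chromosome 6, all 16 of chromosome 1 and all 17 of chromosome 2. With the trend of length and GC content removed the medians were 0.33, 0.23, 0.19 and 0.18 in the same order. In ZIP over untransduced, which shares the untransduced library, they were 0.16, 0.038, 0.058 and 0.083. CD14, CSF1R, VCAN, CD74 and HMGCS1 lie on chromosome 5 and TNF, TNFAIP3 and CDKN1A on chromosome 6, and their rises exceeded these medians. Chromosome 19 had the lowest median, -0.23. Of its 213 tested zinc finger genes of the ZNF series, many of which encode repressors of transposable elements, 162 fell and 6 rose, with a median of -0.76, and without them the chromosome's median was -0.091. Gene copy number was not measured here, and its part in these shifts was not tested.

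**Figure D5:**
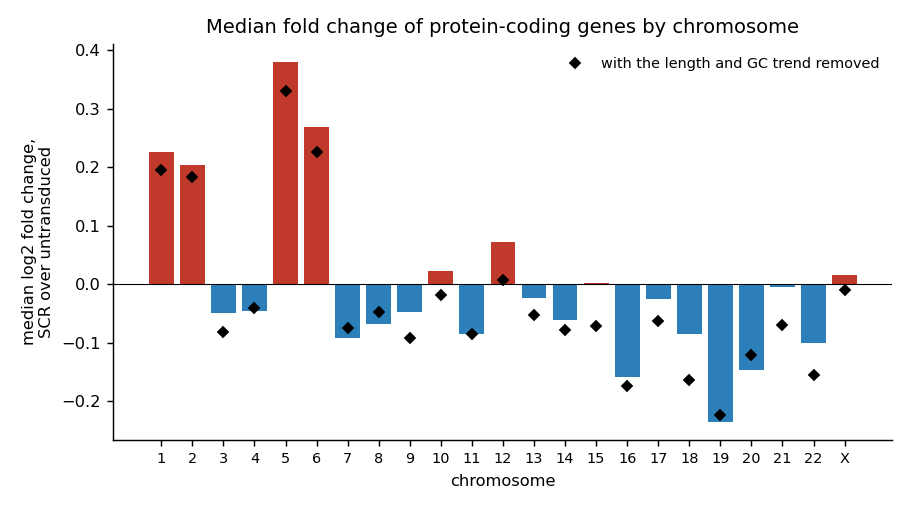
Bars give the median log2 fold change of SCR over untransduced of the protein-coding genes of each chromosome, and diamonds the same with the trend of transcript length and GC content removed. Chromosomes 1, 2, 5 and 6 stand above the rest under both, and chromosome 19 is lowest.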

How the data were processed

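RNA of 5 HL60 libraries was sequenced, and the authors deposited a table of raw read counts per gene, without normalization, for 51055 Ensembl gene IDs; that they are counts was read from the values. Bowtie2 and featureCounts appear in the submitters' processing notes, while the design text names CASAVA 1.8.2, TopHat 2, Cufflinks and HTSeq. Which of these made the counts is not given, nor are the build, annotation or use of strand, so overlapping and antisense genes are uncertain. Symbols and coordinates came from GENCODE 29 (GRCh38), which named 44305 IDs. The untransduced library held 25064771 counts, SCR 1 24539092, SCR 2 24978022, ZIP 1 30925067 and ZIP 2 24406580.

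Counts were analysed with edgeR 4.0.16 in R 4.3.3: filterByExpr (minimum count 10, minimum total 15), TMM scaling and the quasi-likelihood test over all 5 libraries with group as the only term (2 residual degrees of freedom), with Benjamini-Hochberg adjustment. The script was tested on simulated data. Ratios have exact (Clopper-Pearson) 95% intervals of the summed SCR counts against the untransduced count, scaled by library size. A gene without an untransduced count was set to 3 counts, which is 0.125 CPM. Intervals and floors cover counting error only. Promoters were RefSeq windows of 300 bases, found for 10780 of the 15832 tested genes.

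The 51 gene lists, the comparison and the tests were chosen with earlier results of these data known. Genes were named by rule: the 15 largest rises and falls by fold among genes of at least 1 CPM and by CPM, and from each list up to 4 members of smallest p and the largest rise and fall. Other list members and the promoters printed were chosen after their values were seen. Some genes that the rule names are not reported here. Alternatives were other scalings, no filter, DESeq2 1.42.0, only the 3 libraries, each replicate left out, and a correction for transcript length and GC content, which was added after the data were seen.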

Additional observations from a re-analysis of the deposited data

How the results depend on the processing

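Across 10 alternatives, 305 of 327 single-gene results and 51 of 57 counts kept their direction and side of the threshold or stayed within 1.5 times. With DESeq2 the genes at least 2-fold lower numbered 611 in place of 927, and heat shock genes called lower 5 in place of 8; with library totals they numbered 4. With the length and GC trend removed, 2 in place of 9 genes of the microRNA machinery list and 1 in place of 2 erythroid markers were called higher. B cell markers called higher were 2 without the count filter and 0 without SCR replicate 1, in place of 1. Epithelial and fibroblast markers called higher were 1 in place of 2 with DESeq2, with the trend removed, without the filter and without SCR replicate 2, and 3 without SCR replicate 1. The cause of these shifts was not tested. Log2 fold changes that changed sign were those of HLA-B (0.052), IFNAR1 (-0.028), RUNX1 (-0.0028), SPI1 (0.051) and SRGN (0.0020) with the trend removed, and HLA-B (0.056), HSPA5 (0.062) and SOD2 (0.10) with library totals. No paired analysis was possible because the untransduced group is 1 library, which the labels give no number, and so shares fewer than 2 replicate numbers with SCR. A floor per library gave the same values, since the untransduced group is 1 library. The single untransduced library limits every value: its own spread was not measured.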

Other observations

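In each of the larger classes of genes outside the protein-coding one, smaller shares were called than among all genes tested. Of all genes tested 32.7% were higher and 32.2% lower. The values of 3 of these classes are given here. Of 814 tested processed pseudogenes, copies of spliced mRNAs that can share reads with their parent genes, 222 fell (27.3%) and 56 rose (6.88%), with a median log2 fold change of -0.52. Of 66 tested small nucleolar RNA genes 18 fell (27.3%) and 6 rose (9.09%), with a median of -0.61. Of 374 tested long intergenic RNA genes 87 rose (23.3%) and 59 fell (15.8%), with a median of 0.19.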
